A study of Saccharomyces cerevisiae with 14 samples.

Results

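Rad52 peaks on the Ty retrotransposons of budding yeast were followed through 14 chromatin immunoprecipitation libraries. A Ty peak was any nuclear peak that overlapped a Ty locus by at least 1 bp. A Ty locus was a protein-coding gene of at least 4000 bp whose systematic name ends in a hyphen and a letter, which gave 34 loci, and YER160C and YML045W were added by name. The 14 lists held 267 such peaks among 7176 nuclear peaks, and the 36 loci were taken from 6431 nuclear genes of the sacCer3 (R64) annotation. The loci measure 4498 to 5410 bp and sum to 188.625 kb. The shortest locus inside the length limit was YIL082W-A at 4498 bp, and the longest hyphen-named coding gene outside it was YLR035C-A at 3468 bp.

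Ty elements are retrotransposons that multiply by transcription, reverse transcription in a virus-like particle and insertion of the new DNA copy elsewhere in the genome. An element is framed by long terminal repeats, and its reading frames encode a structural protein and a polyprotein with protease, integrase, reverse transcriptase and RNase H parts. Many Ty elements sit close to tRNA genes, because the integrase of these elements contacts the RNA polymerase III machinery. Rad52 is a recombination protein and serves as a marker of DNA under repair. The study asked where Rad52 gathers when the machinery that removes DNA-RNA hybrids is missing. RNase H digests the RNA of such hybrids, Sen1 is a helicase that unwinds them, and the topoisomerase Top1 relieves the supercoiling that transcription leaves behind.

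Of the 8 groups, 6 with 11 libraries were 288C strains given 0.5 µM auxin for 4 h, and wild-type cells received it too. These were WT (2 libraries), Sen1-AID (2), h1D-h2D (2), Top1-AID (1), h1D-h2D Sen1-AID (2 libraries) and, last, h1D-h2D Top1-AID (2). h1D-h2D was read as loss of the RNase H genes RNH1 and RNH201, which the study's design names, and AID marks an auxin-inducible degron, a tag that leads to degradation of the protein. The strain field of the last group reads h1D-h2D_Top1 and its title h1D-h2D_Top1-AID. The other groups were JKM strains with Gal-HO, in which galactose switches on the HO endonuclease. Gal-HO galactose had 2 libraries in 2% galactose and Gal-HO dextrose had 1, and no auxin is recorded for them. In the Gal-HO libraries strain and treatment both differ from the auxin libraries, and their parts cannot be told apart. The peak lists hold no measure of how far Sen1 or Top1 was depleted. The 4 libraries of the last 2 groups, h1D-h2D with Sen1-AID or Top1-AID, are called the combined mutants below, and WT, Sen1-AID, h1D-h2D and Top1-AID the other auxin libraries.

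The lists held 254 to 305 nuclear peaks in the 4 combined mutant libraries, 454 to 731 in the 7 other auxin libraries and 544 to 637 in the 3 Gal-HO libraries. Read depth is unknown, and nothing in the labels says that replicates came from separate cultures, so p-values cover spread between libraries that may be technical. Sen1-AID replicate 2 had the shortest list of the other auxin libraries, and its peaks outside Ty had a median width of 1365 bp, against 2238 bp in replicate 1. How reads that map to several Ty copies were placed is not given in the sources used here. Ty copies resemble each other closely, so a peak at a named locus can hold reads from another copy.

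Ty loci took a larger share of the peaks in the combined mutants than in the other auxin libraries. In WT, 23 of 666 and 27 of 617 peaks lay on Ty, or 3.45% and 4.38%. The shares were 3.01% and 3.52% in Sen1-AID, 1.89% and 3.46% in h1D-h2D, and 3.45% in Top1-AID. They were 4.55% and 4.92% in the h1D-h2D Sen1-AID pair, and 7.45% and 8.66% in the h1D-h2D Top1-AID pair. All 4 combined mutant libraries were above all 7 others, with means of 6.39% ± 1.99 (SD, n = 4) and 3.31% ± 0.746 (SD, n = 7). The Gal-HO galactose libraries had 2.02% and 3.61% and Gal-HO dextrose 3.61%, within the range of the other auxin libraries. By the 1 bp rule, the larger share went with shorter lists and not with more Ty peaks. Ty peaks per library numbered 17.8 ± 4.43 in the combined mutants (SD, n = 4) and 19.9 ± 4.88 in the others given auxin (SD, n = 7). Of the 267 Ty peaks, 183 had their midpoint in a Ty locus. Counted by midpoint, the means were 15.8 ± 6.08 (SD, n = 4) and 13.3 ± 3.55 (SD, n = 7). That count was 21 in both h1D-h2D Top1-AID libraries, 10 and 11 in the h1D-h2D Sen1-AID pair and 8 to 17 in the other auxin libraries. Without the h1D-h2D Top1-AID libraries the difference in share was 1.42 percentage points in place of 3.08.

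**Figure D1:**
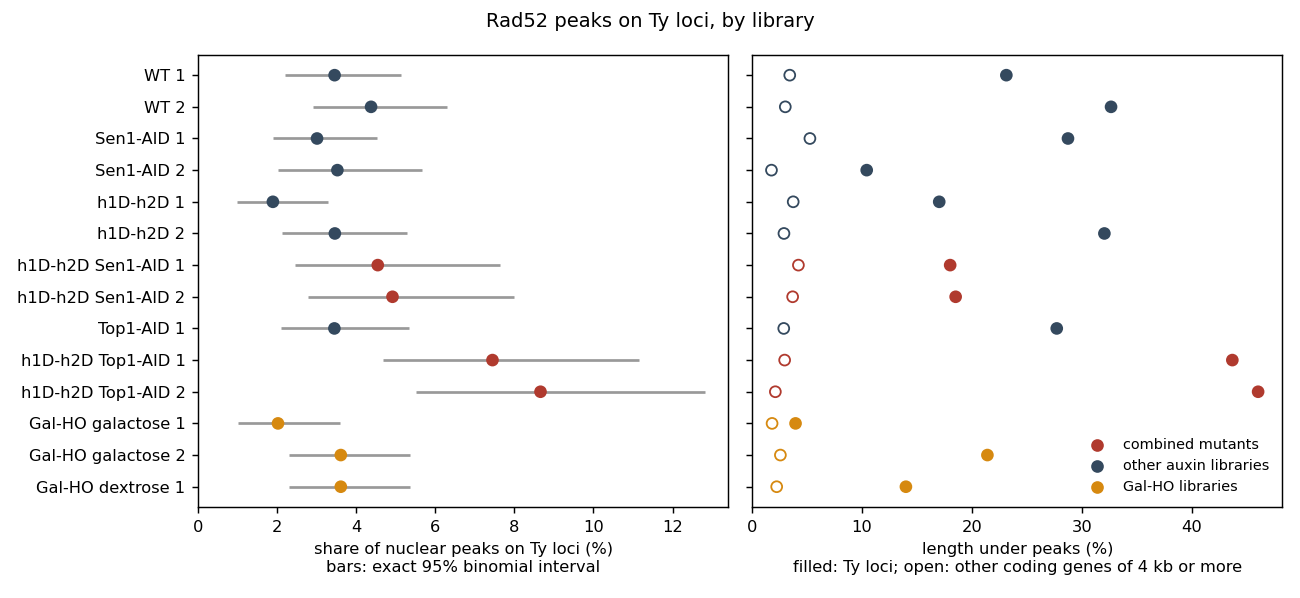
Left, share of nuclear peaks that overlap a Ty locus (x axis, percent) in each of the 14 libraries (rows), with 95% exact Clopper-Pearson intervals as bars, which cover counting error only; right, share of the length of Ty loci (filled) and of the 204 other coding genes of at least 4 kb (open) under peaks (x axis, percent). The points of h1D-h2D Top1-AID, at 7.45% and 8.66%, are the highest, and h1D-h2D replicate 1 is the lowest at 1.89%.

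The number of Ty loci with a peak was lower in both h1D-h2D Sen1-AID libraries than in both h1D-h2D Top1-AID libraries, and more loci were covered from end to end in the latter than in any other library. WT libraries had a peak on 17 and 23 of the 36 loci, Sen1-AID on 17 and 16, h1D-h2D on 10 and 17, and Top1-AID on 15. h1D-h2D Sen1-AID had 10 and 11 loci and h1D-h2D Top1-AID 18 and 20. Among the JKM libraries, Gal-HO galactose had 11 and 18 and Gal-HO dextrose 19. All 4 combined mutant libraries thus lay inside the range of the other auxin libraries, 10 to 23 loci. The means were 14.8 ± 4.99 loci (SD, n = 4) and 16.4 ± 3.82 (SD, n = 7). At least 95% of the locus was under peaks at 11 and 11 loci in the h1D-h2D Top1-AID pair, at 4 and 4 in the h1D-h2D Sen1-AID pair, and at 0 to 6 in the other auxin libraries. No Ty locus reached that extent in any of the 3 Gal-HO libraries. The difference in the number of loci covered changed direction under other settings. With each list reduced to its 254 highest-scoring peaks it was 12.2 more loci in the combined mutants, in place of 1.68 fewer.

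The length of Ty under peaks showed the same order. Peaks covered 43.7% and 46.0% of all Ty length in the h1D-h2D Top1-AID pair. They covered 18.0% and 18.5% in the h1D-h2D Sen1-AID pair, 23.1% and 32.7% in WT, 28.7% and 10.4% in Sen1-AID, 17.0% and 32.1% in h1D-h2D, and 27.7% in Top1-AID. The h1D-h2D Top1-AID libraries were therefore the highest, and h1D-h2D Sen1-AID lay inside the range of the other auxin libraries. Gal-HO galactose had 3.95% and 21.4% and Gal-HO dextrose 13.99%. Of the length of the 204 other coding genes of at least 4 kb, 1.75% to 5.25% was under peaks, below the Ty value in all 14 libraries. The combined mutants and the other auxin libraries did not stand apart in this measure, at 31.6% ± 15.4 (SD, n = 4) and 24.5% ± 8.25 (SD, n = 7). The difference of 7.03 percentage points became -0.19 without peaks that overlap a tRNA gene and -6.27 without h1D-h2D Top1-AID.

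**Figure D2:**
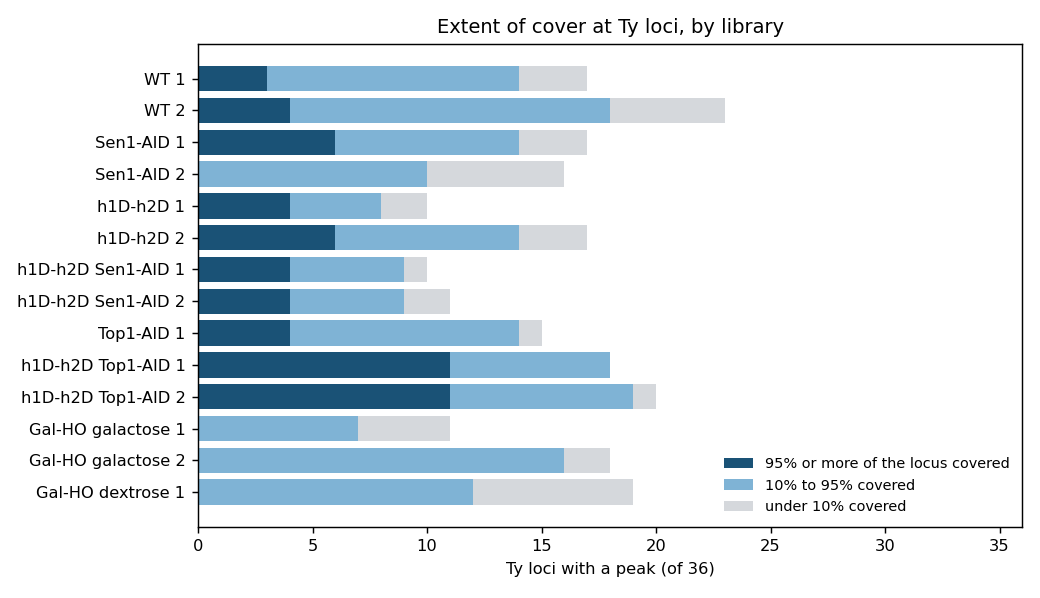
Number of Ty loci with a peak (x axis, of 36) in each library (rows), stacked by the share of the locus under peaks. The whole-locus part is longest in the h1D-h2D Top1-AID libraries, with 11 loci each, and missing in Sen1-AID replicate 2 and the 3 Gal-HO libraries.

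Ty peaks were wide. Their median width exceeded that of the other peaks of the same list in 13 of 14 libraries. The exception was Gal-HO galactose replicate 1, with 1492 bp against 1553 bp. Median Ty widths were 6367 and 5872 bp in the h1D-h2D Top1-AID pair and 5425 and 3749 bp in the h1D-h2D Sen1-AID pair. They ran from 1581.5 to 3763.5 bp in the 7 other auxin libraries and from 1492 to 2755 bp in the 3 Gal-HO libraries. Only h1D-h2D Sen1-AID replicate 2 of the combined mutants overlapped the other auxin libraries in this measure. Other peaks had medians of 1342.5 to 2238 bp over all 14 libraries. The widest Ty peak measured 8360 bp.

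The deposited peak score has no stated scale, so Ty peaks were ranked within each list as percentiles. The median Ty percentile was 16.2 to 41.6 in the other auxin libraries and 23.2 to 35.3 in the Gal-HO libraries, so most Ty peaks there were in the lower part of their lists. It was 53.8 and 51.1 in the h1D-h2D Sen1-AID pair and 74.8 and 55.3 in the h1D-h2D Top1-AID pair. These lists are shorter, and ranks from lists of unequal length show no change in signal. Of the 267 Ty peaks, 15 ranked above the 90th percentile, and 11 of them were in the combined mutants.

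Which loci carried peaks varied widely, and no Ty locus had one in all 14 libraries, where 3.05% of all genes did. YLR227W-B was covered in 13 libraries, YNL054W-B in 12, YDR261W-B in 11 and YNL284C-B in 10. YDR098C-B, YDR316W-B, YDR365W-B, YER160C, YPR158C-D and YOR343W-B were covered in 9, and YDR210C-D, YLR157C-B, YOR192C-B and YPL257W-B in 8. YBL005W-B, YDR034C-D and YGR109W-B followed with 7. These 17 loci had a peak in at least 7 libraries. YDR261C-D, YGR161C-D, YHR214C-B, YOR142W-B and YPR137C-B were covered in 6 libraries, YFL002W-A in 5, and YGR038C-B, YIL082W-A and YML045W in 4. YBR012W-B, YGR027W-B, YLR410W-B, YOL103W-B and YPR158W-B had a peak in 3, and YBL100W-B, YGR161W-B and YPL060C-A in 2. YHL009W-B was touched by 4 bp in Gal-HO dextrose alone. YDR210W-B, on chromosome IV at 872112-877425, was the locus without a peak in any library, as were 56.9% of all genes.

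**Figure D3:**
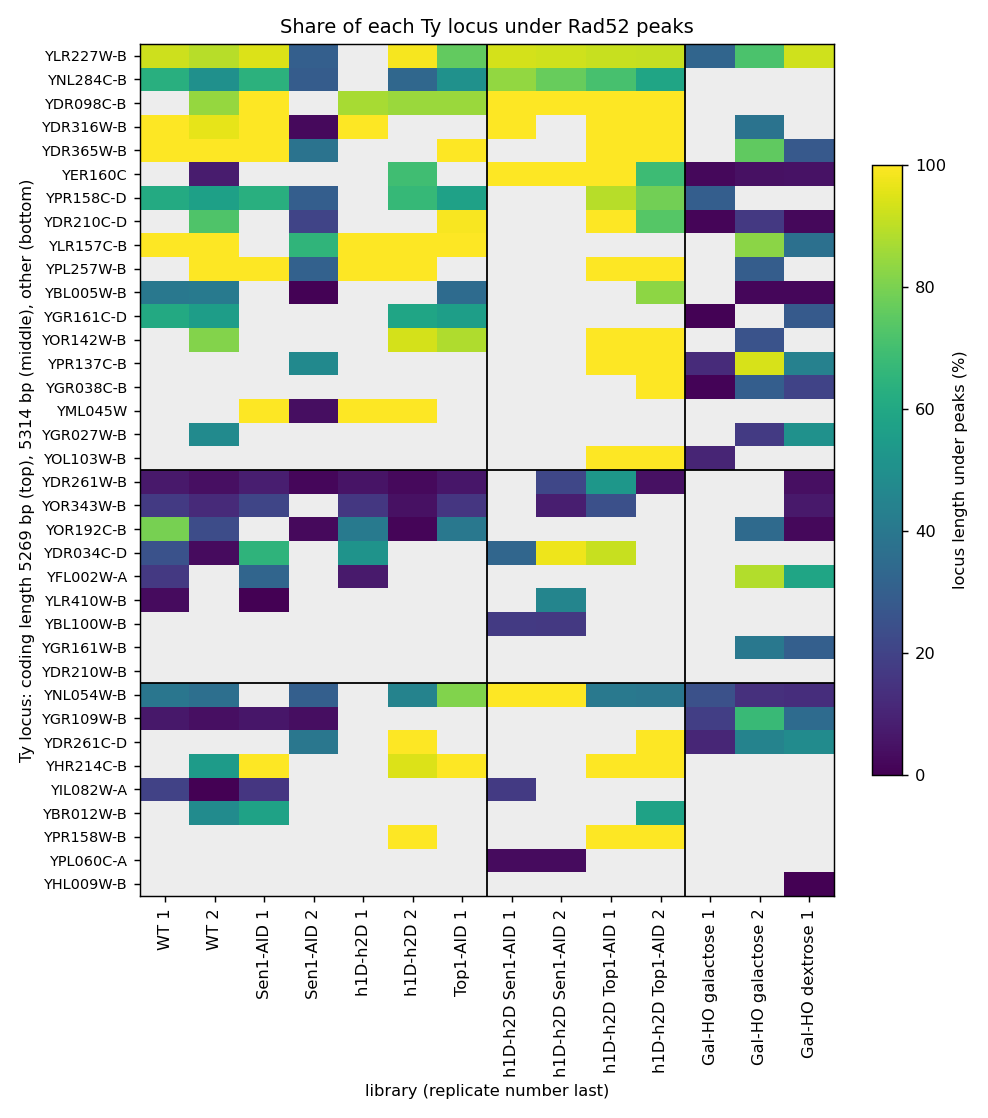
Share of each Ty locus under peaks (colour, percent of the reading frame) for the 36 loci (rows) in the 14 libraries (columns). YLR227W-B is coloured in 13 columns, YDR210W-B in none, and YLR157C-B is blank in all 4 combined mutant columns.

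Replicates shared fewer of their Ty loci than of all their genes in 5 of the 6 groups with 2 libraries, and more in h1D-h2D Top1-AID. Of the Ty loci covered in either replicate, both replicates covered 15 of 25 in WT, or 60%, where the same share over all genes was 75.9%. In Sen1-AID it was 9 of 24 (37.5%) against 48.2%, in h1D-h2D 7 of 20 (35.0%) against 71.1%, and in Gal-HO galactose 8 of 21 (38.1%) against 66.9%. In the h1D-h2D Sen1-AID pair it was 8 of 13 (61.5%) against 65.3%. The h1D-h2D Top1-AID pair was the exception, with 16 of 22 (72.7%) against 60.1%. For the 204 other coding genes of at least 4 kb the share was close to that of Ty in some groups. It was 63.3% in WT, 37.5% in Sen1-AID and 60.5% in the h1D-h2D Sen1-AID pair. In the remaining groups it was 61.2% in h1D-h2D, 47.7% in Gal-HO galactose and 42.9% in the h1D-h2D Top1-AID pair. For tRNA genes the share was 63.2% in the h1D-h2D Top1-AID pair and 68.9% to 90.04% in the other 5 groups. Counted over whole lists, both WT libraries covered 15 of the 36 loci, where 21.8% of the 6431 genes were covered in both. The background share was 14.7% for Sen1-AID, 19.2% for h1D-h2D and 17.4% for Gal-HO galactose. It was 9.92% and 7.34% for the h1D-h2D Sen1-AID and the h1D-h2D Top1-AID pairs.

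No Ty locus and no other gene differed between the combined mutants and the other auxin libraries after adjustment over 6431 genes (Fisher's exact test on presence, Benjamini-Hochberg). The smallest p that 4 libraries against 7 can give is 0.00303, and 390 genes would have needed it for any to pass 0.05, where 142 had it. At an unadjusted p under 0.05, 2 Ty loci were covered less often in the combined mutants and 0 more often, against 7.49% and 0.109% of all genes. Of the 36 loci, 18 had a lower share of libraries covered in the combined mutants, 15 a higher one and 3 the same, where over all genes 1836 had a lower share, 397 a higher one and 4198 the same. The median difference was -0.0179, and over all genes it was 0, the value of the genes with no difference. For the fraction of the locus under peaks, 1 locus was lower and 2 were higher at an unadjusted p under 0.05 (exact permutation test over 330 splits), against 8.94% and 0.373% of all genes. No Ty locus passed adjustment there either, and at none of them were the groups without overlap, where 3.06% of all genes were lower and 0.0155% higher without overlap. In the comparison of Sen1-depleted with the other auxin libraries, 0 Ty loci had an unadjusted p under 0.05 in either direction, against 0.249% of all genes less often covered and 0.342% more often. In that of libraries lacking RNase H with those holding it, 1 was covered less often and 0 more often, against 0.218% and 0.0311%. No gene passed adjustment in either of these 2 comparisons. When the peaks of the 11 auxin libraries were merged into 853 regions and these were tested in place of genes, an alternative chosen after seeing the data, 0 of the 42 regions on Ty passed adjustment (smallest adjusted Fisher's exact p of 0.0862), where 8.56% of all regions were less often covered in the combined mutants and 0 more often.

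YER160C, on chromosome V at 492856-498124, had the largest difference toward the combined mutants. Peaks covered 5269 bp, the whole frame, in h1D-h2D Sen1-AID replicates 1 and 2 and h1D-h2D Top1-AID replicate 1, while h1D-h2D Top1-AID replicate 2 had 3607 bp. Among the other auxin libraries, 405 bp were covered in WT replicate 2 and 3654 bp in h1D-h2D replicate 2, and the remaining 5 had no peak there. The groups overlapped through h1D-h2D replicate 2 only. The covered fraction was 92.1% ± 15.8 (SD, n = 4) against 11.01% ± 25.9 (SD, n = 7), with an exact permutation p of 0.00606 and an adjusted p of 0.193. Its peaks ranked at percentiles of 98.6 and 98.4 in the h1D-h2D Sen1-AID pair, the highest of all Ty peaks in those libraries, and at 88.7 and 49.6 in the h1D-h2D Top1-AID pair. In the Gal-HO libraries 121, 229 and 250 bp at one edge were covered. The tRNA gene YNCE0028C, 431 bp beyond the 3′ end of the locus, was covered in 3 of the 4 combined mutant libraries, 2 of the 7 others and all 3 Gal-HO libraries.

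YLR157C-B and YOR192C-B differed the other way. YLR157C-B, on chromosome XII at 476333-481601 with no tRNA gene within 1 kb, was covered over all its 5269 bp in both WT libraries, both h1D-h2D libraries and Top1-AID. Sen1-AID replicate 2 had 3454 bp under peaks, and Sen1-AID replicate 1 and the 4 combined mutant libraries had none. Presence was 6 of 7 against 0 of 4, with an exact p of 0.0152 and an adjusted p of 0.258. YOR192C-B, on chromosome XV at 704419-709732 beside the initiator tRNA gene IMT1, gave the same presence and the same p-values. Its peaks covered 4228 and 1235 bp in WT, 145 bp in Sen1-AID replicate 2, 2188 and 81 bp in h1D-h2D and 2137 bp in Top1-AID. IMT1 itself was covered in 6 of the 7 other auxin libraries and in 0 of the 4 combined mutants. The peaks at YLR157C-B thus mostly covered a whole frame, and those at YOR192C-B were of varying reach beside a tRNA gene.

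YNL284C-B carried peaks in 10 of the 11 auxin libraries and in none of the Gal-HO libraries. The locus lies on chromosome XIV at 96964-102232 between the tRNA genes SUF6 and YNCN0003W. Peaks covered 4409 and 4045 bp in the h1D-h2D Sen1-AID pair and 3732 and 3096 bp in the h1D-h2D Top1-AID pair. They covered 3322 and 2654 bp in WT, 3379 and 1533 bp in Sen1-AID, 0 and 1750 bp in h1D-h2D and 2669 bp in Top1-AID. The groups overlapped, at 72.5% ± 10.6 (SD, n = 4) and 41.5% ± 22.7 (SD, n = 7) of the locus, with an exact permutation p of 0.0273 and an adjusted p of 0.331. In 8 libraries a separate peak inside the frame had nearly fixed borders, starting between 99141 and 99205 and ending between 100737 and 101067.

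The other most often covered loci differed in the part that was covered. YLR227W-B, on chromosome XII at 593438-598706, had 4801 to 4934 bp under peaks in the 4 combined mutant libraries. In the other auxin libraries it ranged from 0 bp in h1D-h2D replicate 1 to 5206 bp in replicate 2, with means of 92.2% ± 1.17 (SD, n = 4) and 68.8% ± 38.3 (SD, n = 7). YNL054W-B, on chromosome XIV at 519456-524706, was covered whole in h1D-h2D Sen1-AID replicates 1 and 2 and over 2120 and 2076 bp in the h1D-h2D Top1-AID pair. In the 3 Gal-HO libraries only 682 to 1308 bp of YNL054W-B were covered, and these peaks ranked at percentiles of 91.7, 94.98 and 97.2, above its percentile in any auxin library. The 3 peaks were centred outside the locus, with 23.1% to 36.9% of each peak on it, and each also overlapped a tRNA gene. YDR261W-B, on chromosome IV at 981462-986775, had 101 to 442 bp at one edge covered in all 7 other auxin libraries. In the combined mutants it had 0 and 1135 bp in the h1D-h2D Sen1-AID pair and 2817 and 239 bp in the h1D-h2D Top1-AID pair. Its neighbour YNCD0019C, a tRNA gene 406 bp upstream, was covered in 11 libraries. YDR098C-B, named after its values were seen, was covered over its whole length in all 4 combined mutant libraries and over 63.0% ± 43.4 (SD, n = 7) in the others, with an exact permutation p of 0.124.

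A few loci had peaks in every library of a mutant group and in neither WT library. In both h1D-h2D Top1-AID libraries and in neither WT library, YOL103W-B, YPR137C-B and YPR158W-B had peaks, or 3 of 36 loci, where 0.202% of all genes did. Of the 204 other coding genes of at least 4 kb, 0 did. All 3 Ty loci were covered whole in both libraries, and YOL103W-B and YPR158W-B have no tRNA gene within 1 kb. The peak over YPR158W-B also reached YPR158C-D, a locus with peaks in both WT libraries, and ranked at percentiles of 29.1 and 2.76. Peaks at YOL103W-B and YPR137C-B ranked at percentiles of 24.8 to 36.5. Elsewhere YOL103W-B had 555 bp under a peak in Gal-HO galactose replicate 1, and YPR158W-B was covered whole in h1D-h2D replicate 2. YPR137C-B had 2503 bp covered in Sen1-AID replicate 2 and 654 to 4953 bp in the 3 Gal-HO libraries. In h1D-h2D Sen1-AID the same rule gave YBL100W-B and YPL060C-A, 2 of 36 loci (5.56%), where 1.93% of all genes did. For the 204 other coding genes of at least 4 kb the share was 5.39%, close to that of Ty. In that group the peaks covered 909 and 885 bp of YBL100W-B and 165 and 159 bp of YPL060C-A, so both loci were touched over only part of the frame. At YPL060C-A these were the ends of peaks of 5501 to 7234 bp centred outside the locus, with 0.94% to 1.49% of each peak on it. One of the 2 merged regions there, on chromosome XVI at 430167-437425, had peaks in all 4 combined mutant and all 7 other auxin libraries. In the other direction, 5 of 36 loci (13.9%) had peaks in both WT libraries and in neither h1D-h2D Top1-AID library. For h1D-h2D Sen1-AID it was 7 of 36 (19.4%), and over all genes the share was 11.8% for either group. Peaks in every library of a group and in neither WT library were also found at 3 of 36 loci in Gal-HO galactose and 5 in Gal-HO dextrose. Over all genes these shares were 2.83% and 5.71%. YML045W, on chromosome XIII at 184461-189729, was covered whole in Sen1-AID replicate 1 and in both h1D-h2D libraries and over 202 bp in Sen1-AID replicate 2. It had no peak in WT, Top1-AID or the combined mutants. YGR109W-B, on chromosome VII at 707610-712254, was covered over 170 to 302 bp in both WT and both Sen1-AID libraries and in no other auxin library, and over 857 and 3157 bp in Gal-HO galactose and 1617 bp in Gal-HO dextrose. YGR161C-D had the same difference in presence as YML045W and YGR109W-B between the combined mutants and the others, 0 of 4 against 4 of 7, and covered 0% against 33.0% ± 30.9 of the locus. YGR109W-B is the locus with an unadjusted p under 0.05 for RNase H, present in 4 of 5 libraries holding RNase H and 0 of 6 lacking it (Fisher's exact p = 0.0152, adjusted p = 1). In these 4 libraries the peak was centred outside the locus and also overlapped the tRNA gene YNCG0030C, 430 bp beyond its 5′ end. That tRNA gene was covered in 5 of the 7 other auxin libraries and 0 of the 4 combined mutants.

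The loci were then grouped by the length of their reading frame, which requires no knowledge of element families. The 18 loci of 5269 bp were covered in 131 of 252 locus and library pairs, or 52.0%, and the 9 loci of 5314 bp in 47 of 126, or 37.3%. Whole coverage made up 45 of the 131 covered pairs in the first class and 1 of 47 in the second. In the combined mutants 22 of 35 covered pairs of the 5269 bp class were whole, in the other auxin libraries 23 of 66, and in the Gal-HO libraries 0 of 30. Peaks covered a larger part of the 5269 bp class than of the 5314 bp class in 13 of 14 libraries. The exception was h1D-h2D Sen1-AID replicate 2. The classes also differ in their neighbours. A tRNA gene lay within 1 kb of 15 of the 18 loci of 5269 bp and of 5 of the 9 loci of 5314 bp. Whether frame length or a nearby tRNA gene goes with the difference in cover was not tested. Copies within a length class share sequence, so the pairs are not independent and no test was made.

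Many Ty peaks also lay on a tRNA gene. Of the 267 Ty peaks 148 overlapped one, or 55.4%, against 32.8% of the other peaks. A tRNA gene lay within 1 kb of 25 of the 36 loci, at a median of 482 bp (286 to 818 bp), with 18 beyond the 5′ end and 7 beyond the 3′ end. Over these 25 loci and 14 libraries, Ty was covered in 181 of 350 pairs, and 1 peak spanned both the Ty locus and the tRNA gene in 137 of them, or 75.7%. Where the tRNA gene was covered, Ty was covered in 141 of 164 pairs, or 86.0%. In the combined mutants Ty was covered in 45 pairs, and 1 peak spanned both in 30 of them (66.7%). In the other auxin libraries it did so in 73 of 95 (76.8%) and in the Gal-HO libraries in 34 of 41 (82.9%). The 11 loci without a tRNA gene within 1 kb were covered in 41 of 154 pairs, or 26.6%, against 51.7% of the 350, and 20 of these 41 were whole. Whether signal at a Ty edge and at the neighbouring tRNA gene has a separate source was not tested.

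The 26 tRNA genes within 1 kb of a Ty locus carried peaks less often than the other 249 in 11 of 14 libraries. In WT, 50% and 73.1% of the near ones were covered, against 86.7% and 92.0% of the rest. In the 7 other auxin libraries the near ones ranged from 34.6% to 73.1% and the rest from 65.1% to 92.0%, lower near Ty in each. In h1D-h2D Sen1-AID both near values were 23.1%, against 38.2% and 46.6%. The order was the other way in the h1D-h2D Top1-AID pair, with 42.3% and 46.2% near Ty and 35.7% and 36.9% for the rest. The third exception was Gal-HO galactose replicate 1, with 65.4% and 64.3%. Few tRNA genes lie near Ty, and 1 gene is worth 3.85 percentage points there.

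Along the frame, mean cover of loci near a tRNA gene was lower in the middle than on the tRNA side in the other auxin and Gal-HO libraries. Each frame was cut into 10 equal parts, counted from the side of the tRNA gene. In the combined mutants the mean lay between 30.8% and 38.8%, an average of 2 groups that lay apart. The parts ran from 21.3% to 29.7% in h1D-h2D Sen1-AID and from 40.4% to 50% in h1D-h2D Top1-AID, with part 7 the lowest in both. In part 1, 36.8% ± 8.08 of the length of the 25 loci was under peaks in the other auxin libraries (SD, n = 7), in part 7 17.8% ± 9.67 and in part 10 24.1% ± 10.54. In h1D-h2D Top1-AID part 1 was covered to 46.5% ± 2.15 (SD, n = 2), part 5 to 50% ± 2.83 and part 10 to 48% in both libraries. In h1D-h2D Sen1-AID parts 1 and 10 were covered to 23.1% ± 1.21 and 29.7% ± 3.29 (SD, n = 2). In the Gal-HO libraries cover was 32.8% ± 10.2 in part 1, 6.88% ± 4.79 in part 5 and 17.3% ± 15.1 in part 10 (SD, n = 3), a dip in the middle of the frame. For the 11 loci with no tRNA gene within 1 kb, read from the 5′ end, parts 1 and 10 were covered to 21.2% ± 12.5 and 18.2% ± 7.42 in the other auxin libraries (SD, n = 7). The combined mutants fell into separate profiles there too. In the h1D-h2D Sen1-AID pair part 1 was covered to 1.37% ± 0.226, part 5 to 0% and part 10 to 15.0% ± 6.13 (SD, n = 2), and in the h1D-h2D Top1-AID pair part 1 to 40.9% ± 6.43 and part 10 to 36.4% in both libraries.

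**Figure D4:**
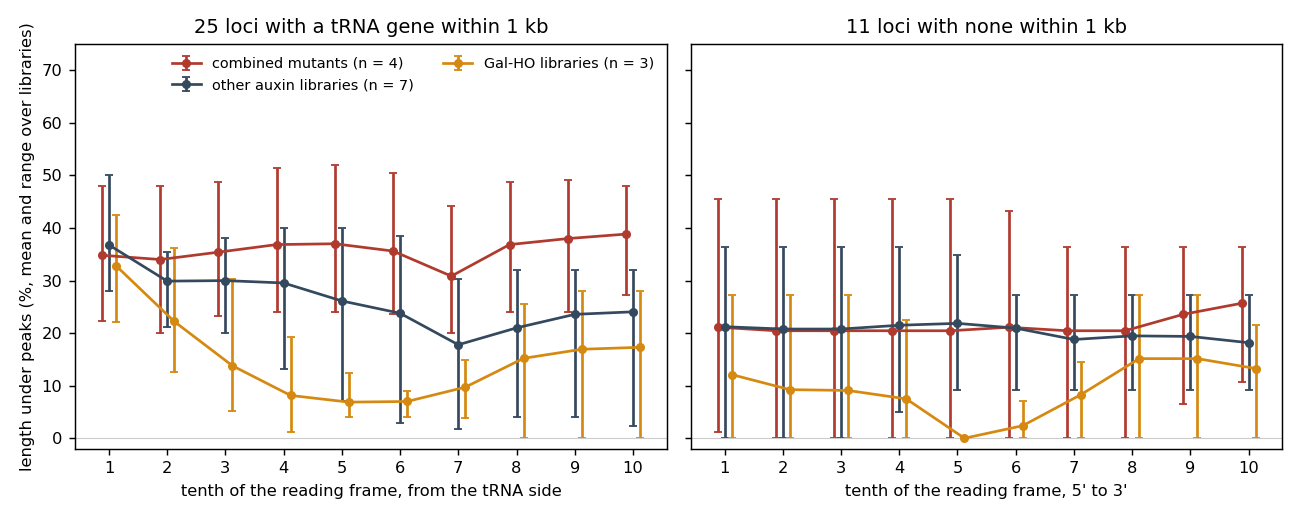
Mean share of length under peaks (y axis, percent) in each of 10 equal parts of the reading frame, for 25 loci read from the side of the tRNA gene (left) and 11 loci with no tRNA gene within 1 kb read 5′ to 3′ (right); points are means and bars the range over libraries. In the left panel the Gal-HO line falls from 32.8% to 6.88% in part 5, and the line of the other auxin libraries falls from 36.8% to 17.8% in part 7, and both are higher again in part 10, at 17.3% and 24.1%.

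A peak that covered a frame from end to end went past it on both sides. There were 53 single peaks that spanned a whole frame, 33 at loci with a tRNA gene within 1 kb and 20 at loci without one, with a median width of 6918 bp (6015 to 8360 bp). At loci without a tRNA gene nearby they reached a median of 497.5 bp past the 5′ end and 600 bp past the 3′ end. At loci with one they reached a median of 1128 bp toward the tRNA gene (566 to 1909 bp) and 618 bp away from it (392 to 1946 bp). Where 2 or more peaks lay on 1 locus, 49 gaps were left between them in 19 loci, with a median length of 957 bp. The gaps lay at a median of 58.2% of the frame from the 5′ end, and 22 of 49 lay between 60% and 80%. At YLR227W-B, 9 of the 10 auxin libraries with a peak had a gap, and in 8 of them it measured 63 to 564 bp and lay at 63.2% to 65.4% of the frame. In Top1-AID the gap was 1269 bp long. Whether reads could be placed uniquely in these stretches was not tested, since the files hold no coverage.

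**Figure D5:**
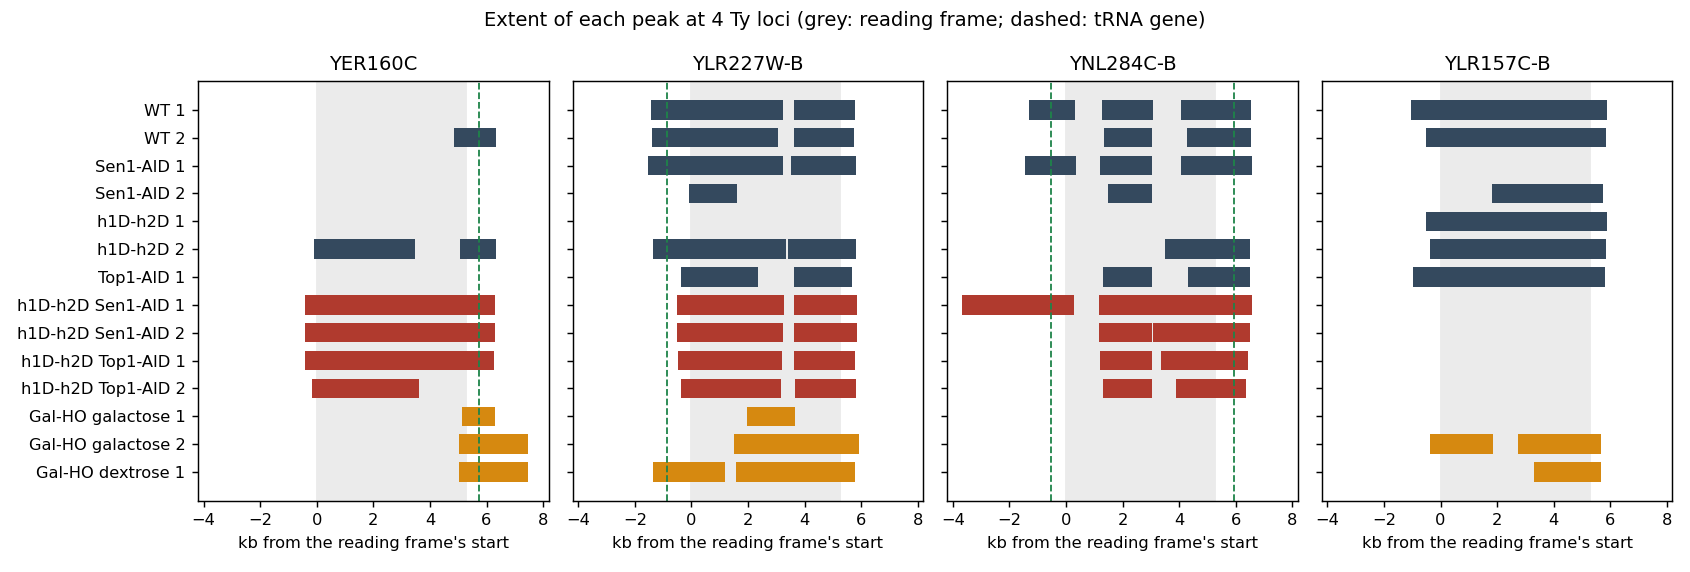
Extent of each peak (bars, kb from the start of the reading frame on the x axis) at YER160C, YLR227W-B, YNL284C-B and YLR157C-B in the 14 libraries (rows); the grey band is the frame and dashed lines are tRNA genes within 1 kb. At YER160C the Gal-HO bars overlap the frame by 121 to 250 bp only, and at YLR227W-B a gap recurs in 9 auxin libraries.

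Host genes known for Ty transcription or integration were counted beside the Ty loci. Of 36 such genes 24 had no peak in any library, where 56.9% of all genes had none. In a given library 2 to 8 of the 36 were covered, where 6.85% to 26.3% of all coding genes were. RTT101, a cullin of a ubiquitin ligase, was covered in 12 libraries. TFC3, a subunit of the RNA polymerase III factor TFIIIC, was covered in all 7 other auxin libraries and in 1 of the 4 combined mutants (Fisher's exact p = 0.0242, adjusted p = 0.319). It was the only 1 of the 36 less often covered there at an unadjusted p under 0.05, where 7.49% of all genes were. TEC1, a transcription factor that activates Ty1, was covered in 5 of the 7 other auxin libraries and in 0 of the 4 combined mutants. SPT16, a subunit of the histone chaperone FACT, was covered in both h1D-h2D Sen1-AID libraries alone. SPT3, STE12, BRF1, BDP1 and RPC40 had no peak.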

How the data were processed

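Rad52 chromatin immunoprecipitation was sequenced in 14 libraries. The deposited files are peak lists that give a position and a score for each peak. The authors' score has no stated scale, and it was used only as a percentile within a list. Per the submitters' processing notes, Bowtie2, MACS2 and the build sacCer3 were used, and no versions are given there. Whether a control library entered peak calling, and how reads that map to several places were handled, is not given in the sources used here. Read depth is unknown, so the number of peaks sets the precision of a share. The 5 mitochondrial peaks were left out.

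Gene positions came from a RefSeq table of the R64 assembly. A gene was covered in a library when a peak overlapped it by at least 1 bp, and a Ty locus was whole at 95% or more. Presence was compared by Fisher's exact test, two-sided, and the covered fraction by exact permutation over all 330 splits of 4 against 7 libraries, both adjusted over all 6431 nuclear genes by Benjamini-Hochberg at 0.05. The tests were tried on simulated data. The members, lists and groups were chosen with earlier results of these data known. Loci described in detail are the 5 covered in most libraries, the 4 with the largest rise and the 4 with the largest fall in presence in the combined mutants (ties by mean score percentile, which left out YGR161C-D), every locus with no peak, and YER160C, YML045W, YOL103W-B, YPR137C-B and YPR158W-B, with tRNA genes within 1 kb of these. No sequences were used. Python 3.11.15, numpy 2.4.6, pandas 2.3.3, scipy 1.17.1 and matplotlib 3.10.9 were used.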

Additional observations from a re-analysis of the deposited data

Results flagged for a closer look

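Opposite shifts in different backgrounds were found for several Ty measures, none of them tested. In each case every library of one background lay on one side of its comparison libraries and every library of the other background on the opposite side, and Top1-AID has 1 library. The cases listed are those that met this rule in a wider screen of measures and pairs of backgrounds. With so few libraries in a group, such separation can easily arise by chance, and no dependence on background is concluded from the list. For the number of Ty peaks, the difference between Top1-AID and WT was -6, and that between h1D-h2D Top1-AID and h1D-h2D was 5.5. Between strains lacking and holding RNase H it was -9 in the WT background, -5 with Sen1-AID and 2.5 with Top1-AID. The share of peaks on Ty differed by -0.466 percentage points for Top1 depletion with RNase H present and by 5.38 without it. The first of these rests on a near tie, with 3.448% in Top1-AID against 3.453% in WT replicate 1 and 4.376% in WT replicate 2. The number of Ty loci covered differed by -5 and 5.5 for the same pair. For RNase H it differed by -6 with Sen1-AID and 4 with Top1-AID. The share of tRNA genes near Ty that were covered differed for RNase H by -32.7 percentage points with Sen1-AID and 9.62 with Top1-AID. The share of Ty peaks on a tRNA gene differed by 4.76 points for Sen1 depletion with RNase H present and by -10.6 without it. For RNase H it differed by -10.5 points with Sen1-AID and 9.09 with Top1-AID. Over 24 combinations of a measure with either the 4 combined mutant or the 7 other auxin libraries, 0 held a library far from the others. The Gal-HO libraries were not checked in this way.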

How the results depend on the processing

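Adjusted counts over genes were 0 in all settings of the gene tests, also under the replicate block (0). This says nothing of stability, since too few genes reached the smallest p for any to pass. At an unadjusted p under 0.05, genes less often covered in the combined mutants numbered 482, 549 under the block and 406 to 611 with 1 library left out. Correlations between same-numbered libraries ran from -0.0299 to 0.439 over 10 pairs of groups. Those among WT, Sen1-AID and h1D-h2D were 0.308, 0.389 and 0.439, a hint of pairing from the data and not the design, and those with the combined mutants reached 0.117 at most, so the numbers were not taken to pair the libraries compared. Testing 853 merged regions in place of genes, chosen after seeing the data, gave 73 regions less often covered in the combined mutants and 0 more often. None of the 42 on Ty was among them.

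The difference in share of peaks on Ty was 3.08 percentage points and ran from 2.33 to 3.70 with 1 library left out. It was 7.26 with scores at or above the pooled median of 194.455, 5.89 with lists of 254 peaks, 1.42 for h1D-h2D Sen1-AID alone and 4.74 for h1D-h2D Top1-AID alone. The difference in Ty loci covered was -1.68 and ran from -3.43 to -0.0952 with 1 library left out. It was 0.75 at the pooled median, 12.2 with equal lists, 0.607 with an overlap of 500 bp, -5.93 for h1D-h2D Sen1-AID alone and 2.57 for h1D-h2D Top1-AID alone. The difference in Ty length under peaks was 7.03 points and ran from 2.21 to 11.6 with 1 library left out. It was 27.2 with equal lists, -0.19 without peaks on tRNA genes, -6.27 for h1D-h2D Sen1-AID alone and 20.3 for h1D-h2D Top1-AID alone. At YDR261W-B the difference in presence turned to 60.7 points with equal lists and 50 with an overlap of 500 bp, and that in covered fraction to -1.32 at the pooled median. The cause of these changes was not tested. Of the other values for single loci, 462 did not reverse in sign and stayed on the same side of the threshold. A difference that became 0 was counted as not reversed. With 1 library left out this occurred for presence at YDR261W-B, YLR227W-B and YNL284C-B, and at YDR210W-B the difference was always 0. As with the adjusted counts, the side of the threshold says nothing of stability. Read depth limits all of these values in a way that the files do not show.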
